A study of Rattus norvegicus with 4 samples.

Results

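*Serpina3n* and 7 other genes of the acute phase response were followed in lens capsules after extracapsular clear lens extraction (ECLE), the surgery that takes out the lens content and leaves the capsule with its lens epithelial cells (LECs). The genes were *Serpina3n*, *Lcn2*, *Cp*, *A2m*, *Osmr*, *Socs3*, *Stat3* and *Il6st*. *Serpina3n* was chosen by its measured ratios on these same arrays, as the most constant large increase after ECLE, so its values are a description and carry no test here. The other 7 genes were taken by name. Of the 8 genes, 7 were represented by 13 of the 31042 probe sets of the array (a probe set is several probes against the same transcript). *Osmr*, the receptor chain for oncostatin M, had no probe set under its symbol alone in the annotation used and was not analysed here.

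The acute phase response is the change in secreted proteins that follows injury or infection, best known in the liver. Cytokines of the interleukin-6 family bind their receptors together with gp130, the shared signaling chain encoded by *Il6st*. Kinases of the JAK family then phosphorylate STAT3, which enters the nucleus and switches on target genes, among them *Socs3*, the feedback inhibitor of the same receptor. Secreted products include protease inhibitors (*Serpina3n*, *A2m*) and proteins that bind or oxidize metals (*Lcn2*, *Cp*). In the mouse brain, *Serpina3n* and *Lcn2* are known as genes of reactive astrocytes.

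The rats were SD rats, female and albino per the methods, and all were operated on at 7 weeks of age. Capsules with LECs were taken on the day of surgery after it was completed (day 0, 7 weeks old, 1 array), after 7 days (1 W, 8 weeks old, 2 arrays labeled as biological replicates) and after 14 days (2 W, 9 weeks old, 1 array). The methods state more samples at each time than there are arrays here and do not say how many eyes or animals stand behind an array. The eyes of day 0 had been through the surgery as well, and no unoperated lens was analysed here. Time after surgery and age cannot be told apart.

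The deposited values are linear intensities, and the array medians lay between 31.9 (2 W) and 57.0 (day 0). Each array was therefore divided by its mean before log2 ratios to day 0 were taken. Intensities below are as deposited, the values for 1 W being those of replicates 1 and 2 in this order, and ratios are after this division, so a fold differs from the plain quotient of the printed intensities. Probe sets under the 40th percentile of mean level were left out of the tests, and over the 18625 brighter ones the log2 ratio had a median of -0.08 (1 W) and -0.26 (2 W), the shifts against which member ratios are to be read. The limma fit takes its spread from the 2 arrays at 1 W alone, with 1 residual degree of freedom, and applies it to the single arrays of day 0 and 2 W. Markers of the labeled tissue were present: all 11 lens epithelium markers were among the brighter genes. Their summed intensity was 53054 (day 0), 45876 and 43174 (1 W) and 35518 (2 W). This sum is as deposited, and the array means differed too, with 244 (day 0) and 165 (2 W). Of the 11, 5 were below day 0 on each array and 2 above, and 1 (*Cdh1*) was under 0.5-fold on each. Of 11 photoreceptor markers measured, genes of the retina and not of the lens, 10 were among the brighter genes and all 11 were below day 0 on each array after ECLE, as were 33.4% of all genes. They summed to 15454 (day 0), 1386 and 5644 (1 W) and 1392 (2 W).

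The promoters of *Serpina3n* and *Lcn2* are shown because these genes had the highest mean ratios at 1 W among the members and because each window, 250 bases before to 50 after the start of the gene, holds a match to a motif of the acute phase response. Sequences are from RefSeq, rat assembly GRCr8, written 5′ to 3′ on the strand of the gene. Of the 8 genes, 7 had an entry, *A2m* being the other one. Capitals mark the matches to TTCNNNGAA, bound by STAT factors, to GGANNTTCC, a core of the site bound by NF-kB, and to TTGCNNAA, bound by C/EBP factors, all searched on both strands.
Serpina3n (chr6:129088142-129088441, plus strand): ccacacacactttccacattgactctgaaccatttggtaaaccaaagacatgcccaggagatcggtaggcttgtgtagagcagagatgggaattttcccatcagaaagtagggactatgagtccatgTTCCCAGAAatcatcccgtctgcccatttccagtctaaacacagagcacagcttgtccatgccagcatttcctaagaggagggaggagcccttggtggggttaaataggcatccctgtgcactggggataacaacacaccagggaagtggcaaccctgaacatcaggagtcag
Lcn2 (chr3:36081731-36082030, minus strand): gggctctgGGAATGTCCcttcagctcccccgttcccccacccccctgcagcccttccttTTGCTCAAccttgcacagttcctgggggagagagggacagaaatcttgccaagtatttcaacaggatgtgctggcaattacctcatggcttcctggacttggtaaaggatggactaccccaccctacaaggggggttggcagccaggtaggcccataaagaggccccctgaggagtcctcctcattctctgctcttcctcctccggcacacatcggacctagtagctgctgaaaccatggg
The STAT match of *Serpina3n* begins 123 bases upstream of the gene start. In *Lcn2* the NF-kB match begins 242 bases upstream and the C/EBP match 191 bases upstream. *Cp* has a C/EBP match 72 bases upstream, and the windows of *Osmr*, *Socs3*, *Stat3* and *Il6st* hold no match to these letters. Among 33469 rat promoter windows of the same length, 8.87% hold the STAT motif, 4.09% the NF-kB core and 10.6% the C/EBP motif, so such matches are frequent and describe the letters only.

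*Serpina3n* encodes a secreted inhibitor of serine proteases. Its probe set (1368224_at) had an intensity of 13.0 (day 0), 796 and 721 (1 W) and 371 (2 W). It was dim at day 0, at the 22.7th percentile of that array, and bright on every array after ECLE, at or above the 91.4th percentile. At 1 W it was 68.7 and 64.4 times the day 0 level, and at 2 W 42.2 times. On the log2 scale these ratios are 6.10, 6.01 and 5.40, a range of 0.70 over the 3 arrays. The replicates at 1 W differed by 0.09, less than the median absolute difference of 0.21 between these arrays over the brighter probe sets. By the lowest of its 3 ratios *Serpina3n* ranked 1 of 18625 brighter probe sets, and 6 of all 31042. On the single arrays it ranked 3 and 1 at 1 W, and 6 at 2 W. These ranks and the small replicate difference restate the choice of the gene by its ratios on these arrays. The denominator of all 3 folds is the same dim value, and *Serpina3n* passed the filter on low values through the arrays after ECLE. In RNA of whole capsules, more cells of a type and more RNA per cell cannot be told apart.

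The high values were not shared by the measured relatives of the gene. RefSeq lists 7 *Serpina3* genes, all on chromosome 6, and 4 of them have a probe set of their own here. *Serpina3c* had 1.66 (day 0), 0.733 and 0.713 (1 W) and 1.73 (2 W), all at the dim end of the arrays. *Serpina3l* had 10.76 (day 0), 3.98 and 5.90 (1 W) and 10.74 (2 W). *Serpina3m* had 13.7 (day 0), 8.97 and 11.9 (1 W) and 2.01 (2 W). These 3 were below the filter, and none was over its day 0 level on every array. These genes are closely similar copies, and how far their probes take up transcripts of each other was not tested.

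**Figure D1:**
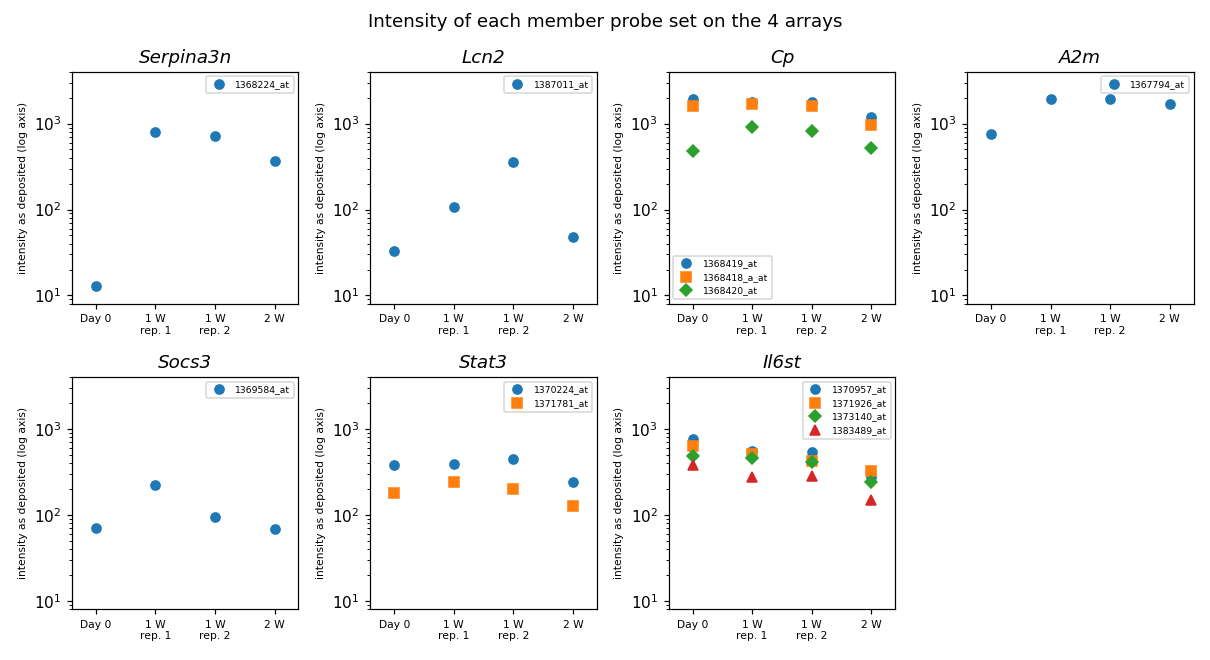
Intensity of the member probe sets as deposited (linear units, log axis) on the array of day 0, the 2 arrays of 1 W and the array of 2 W, with a panel for each gene and a point for each array, the symbol giving the probe set. *Serpina3n* lies between 371 and 796 after ECLE and at 13.0 on day 0, the *Lcn2* values at 1 W lie apart at 108 and 359, and the 4 *Il6st* probe sets are lowest at 2 W.

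*A2m* encodes alpha-2-macroglobulin, a broad protease inhibitor and a major acute phase protein of the rat. Its intensity was 765 (day 0), 1944 and 1945 (1 W) and 1700 (2 W). All arrays after ECLE were above day 0, and they lay close together. The log2 ratio was 1.51 and 1.57 on the replicates of 1 W (mean 1.54, standard error 0.12, 2.91-fold) and 1.72 at 2 W (standard error 0.14, 3.29-fold). Neither passed the threshold of 0.05 in limma (adjusted p = 0.0828 at 1 W and 0.0553 at 2 W), although these were the lowest adjusted p-values at each time among the members other than *Serpina3n*. When arrays were divided by their median in place of their mean, *A2m* passed at both times (log2 ratio 1.66, adjusted p = 0.0114 at 1 W, and 1.99, adjusted p = 0.00859 at 2 W, limma). Limma calls were then far more frequent, 260 up and 146 down at 1 W, and 948 and 683 at 2 W. Division by the mean gave 9 up and 0 down at each time. *A2m* also passed as deposited (limma adjusted p = 0.0371 and 0.0117), and with 75th percentile scaling at 2 W only. *A2m* passed at neither time with quantile normalization (adjusted p = 0.0787 and 0.0644) or in limma without a trend (0.295 and 0.149). At 2 W the level differed little from that at 1 W (log2 difference 0.18, limma adjusted p = 0.429).

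*Lcn2* encodes lipocalin 2, which binds the iron carriers of bacteria. Its intensity was 32.9 (day 0), 108 and 359 (1 W) and 48.5 (2 W). Every array after ECLE was above day 0, but the replicates at 1 W were far apart. Replicate 1 gave a log2 ratio of 1.88 and replicate 2 one of 3.67, a mean of 2.77 (standard error 0.80, 6.84-fold, limma adjusted p = 0.224). At 2 W it was 1.13 (2.19-fold, limma adjusted p = 0.450). The replicate difference of 1.79 exceeded 0.73, the 90th percentile of that difference over the brighter probe sets, and the value at 1 W was 3.67 without replicate 1 and 1.88 without replicate 2. Replicate 2 also had the higher sum of photoreceptor markers (5644, against 1386 on replicate 1). That sum was highest on day 0 (15454), the array on which *Lcn2* was lowest, and was 1392 at 2 W. The part of retinal RNA in the *Lcn2* values was not tested.

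*Cp* encodes ceruloplasmin, the copper-carrying ferroxidase of plasma. Its 3 probe sets did not run alike. The brightest (1368419_at) had 1957 (day 0), 1774 and 1806 (1 W) and 1187 (2 W), with log2 ratios of 0.06 (1 W) and -0.16 (2 W) (limma adjusted p = 0.796 and 0.492). The second (1368418_a_at) had 1604 (day 0), 1712 and 1613 (1 W) and 952 (2 W), with log2 ratios of 0.24 and -0.19 (adjusted p = 0.363 and 0.410). These probe sets were near their day 0 level on each array, and their sign at 2 W turned with median scaling (0.12 and 0.088). The dimmest (1368420_at) had 477 (day 0), 913 and 812 (1 W) and 515 (2 W). Its log2 ratio was 1.05 at 1 W (standard error 0.14, 2.06-fold) and 0.68 at 2 W (1.60-fold), above day 0 on each array, with limma adjusted p = 0.119 and 0.0917. The transcript parts that the 3 probe sets read were not compared here.

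*Il6st*, the gp130 chain, had 4 probe sets, and none was above its day 0 level at 2 W. The brightest (1370957_at) had 762 (day 0), 548 and 533 (1 W) and 278 (2 W). Its log2 ratio was -0.30 at 1 W (limma adjusted p = 0.340) and -0.89 at 2 W (adjusted p = 0.0685). The probe set 1383489_at had 378 (day 0), 277 and 285 (1 W) and 147 (2 W), with log2 ratios of -0.24 (1 W) and -0.80 (2 W) (adjusted p = 0.482 and 0.0912). The other pair, 1371926_at and 1373140_at, gave -0.40 and -0.41 at 2 W (adjusted p = 0.246 and 0.203) and -0.23 and 0.05 at 1 W. All 4 values at 2 W lie below the median of -0.26 for the brighter probe sets, and none passed the test. Taken as deposited, without division by the array mean, all 4 passed at 2 W (log2 ratio -1.46 to -0.96, limma adjusted p = 0.0104 to 0.0241), on an array whose median intensity was also the lowest. In that setting 7630 of the 18625 probe sets were called lower at 2 W. With median scaling none of the 4 passed (log2 ratio -0.62 to -0.12).

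*Stat3*, the transcription factor downstream of gp130, lay near its day 0 level, with log2 ratios between -0.07 and 0.60 on the arrays after ECLE. Its brighter probe set (1370224_at) had 376 (day 0), 394 and 451 (1 W) and 242 (2 W). The log2 ratios were 0.36 (1 W) and -0.07 (2 W) (limma adjusted p = 0.371 and 0.845), and the sign at 2 W turned with median scaling (0.20). The other (1371781_at) had 179 (day 0), 242 and 197 (1 W) and 125 (2 W), with log2 ratios of 0.48 and 0.05 (adjusted p = 0.320 and 0.907). The arrays measure *Stat3* mRNA and not phosphorylated STAT3, the active form.

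*Socs3*, the feedback inhibitor, had 69.7 (day 0), 224 and 95.5 (1 W) and 67.6 (2 W). Replicate 1 at 1 W stood above the other arrays. Its log2 ratio was 1.85, against 0.67 for replicate 2 (mean 1.26, standard error 0.55, 2.40-fold, limma adjusted p = 0.328), and 0.52 at 2 W (1.44-fold, adjusted p = 0.606). The replicate difference of 1.18 was above the 90th percentile of 0.73, as for *Lcn2*, but here replicate 1 and not replicate 2 was the higher array.

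**Figure D2:**
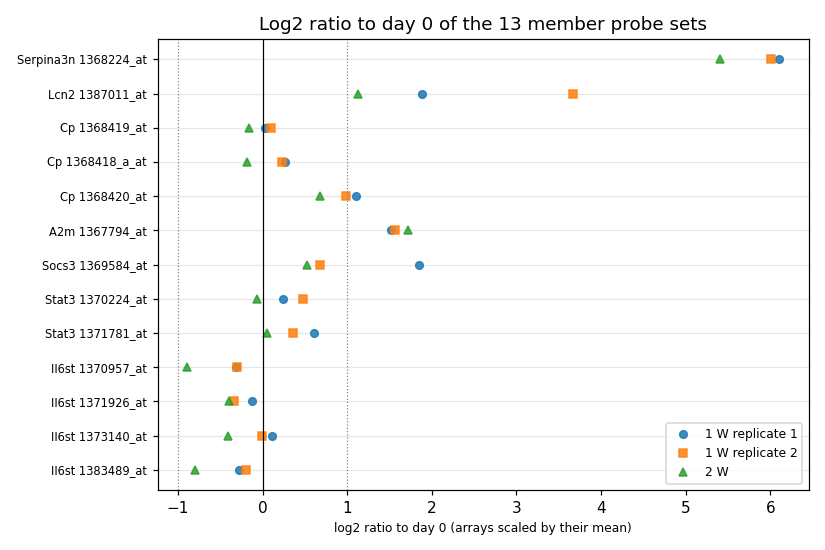
Log2 ratio to day 0 of each member probe set after division by the array mean, with a symbol for each of the 2 arrays at 1 W and the array at 2 W and dotted lines at the 2.0-fold and 0.5-fold limits. *Serpina3n* lies at 5.40 to 6.10, *A2m* at 1.51 to 1.72, *Lcn2* is spread between 1.13 and 3.67, and the *Il6st*, *Stat3* and brighter *Cp* probe sets lie around 0.

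Over the members, 3 of 7 genes (*Serpina3n*, *Lcn2* and *A2m*) met the fold rule of the methods, over 2.0-fold, on every array after ECLE (3 arrays). Without *Serpina3n*, whose ratios chose it, these are 2 of 6 genes. Over all genes, each taken by its brightest probe set, 4.28% (609 of 14217) met this rule, and over the brighter probe sets 2.05% (382 of 18625). None of the 7 genes was under 0.5-fold on each array, against 2.59% of all genes and 2.08% of the brighter probe sets. In limma, 0.0483% of the brighter probe sets were called higher at 1 W and 0.0483% at 2 W, with 0% called lower at either time and 0% called in either direction between 2 W and 1 W. None of the 12 member probe sets other than that of *Serpina3n* was called in any of these comparisons. At an unadjusted p under 0.05 in limma, 3 of the 12 were higher at 1 W, against 8.21% of all probe sets tested. At 2 W, 2 of the 12 were higher than day 0 (9.01% of all) and 2 lower (21.9% of all), and 4 were lower than at 1 W (16.4% of all). Both that were lower than day 0 are of *Il6st* (1370957_at and 1383489_at). Those lower than at 1 W are of *Il6st* (1370957_at, 1373140_at and 1383489_at) and *Cp* (1368418_a_at), so these counts are of probe sets and not of separate genes. With the 3 arrays after ECLE taken as 1 group, the log2 ratio was 1.60 for *A2m* (limma adjusted p = 0.105), 2.22 for *Lcn2* (adjusted p = 0.443), 0.92 for *Cp* at 1368420_at (adjusted p = 0.353) and 1.01 for *Socs3* (adjusted p = 0.530). All ratios share the day 0 array.

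The ligands of the pathway were mostly dim or below day 0. Of 10 ligands of the interleukin-6 family listed, 8 were measured and 3 were among the brighter genes. *Cntf*, ciliary neurotrophic factor, had 2666 (day 0), 1699 and 1764 (1 W) and 868 (2 W) (log2 ratio -0.43 and -1.05, limma adjusted p = 0.226 and 0.0577). *Ctf1*, cardiotrophin 1, had 478 (day 0), 151 and 183 (1 W) and 79.5 (2 W) (log2 ratio -1.33 and -2.02, adjusted p = 0.142 and 0.0577), and was the 1 ligand under 0.5-fold on each array. *Il6* itself and *Osm*, oncostatin M, both named after their values were seen, were dim throughout. *Il6* had 0.995 (day 0), 1.72 and 1.76 (1 W) and 5.77 (2 W), and *Osm* 5.19 (day 0), 6.12 and 14.1 (1 W) and 12.6 (2 W). These were the 2 ligands above day 0 on each array, and 3 were below, against 26.5% and 33.4% of all genes. No ligand was over 2.0-fold on each array, and the median log2 ratio of the 8 was -0.09 and -0.10 (1 W) and -0.60 (2 W). Over all genes these medians were -0.04, 0.01 and -0.16.

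Of 6 further receptor chains listed, 5 were measured and 4 were among the brighter genes. *Il6r*, the chain that binds interleukin-6, had 31.4 (day 0), 62.4 and 108 (1 W) and 32.2 (2 W) (log2 ratio 1.58 at 1 W, limma adjusted p = 0.227, and 0.60 at 2 W, adjusted p = 0.487). *Cntfr*, the chain for ciliary neurotrophic factor, had 122 (day 0), 45.2 and 80.0 (1 W) and 71.0 (2 W). None of the 5 met either fold rule on each array. Of 9 JAK kinases and other STAT factors measured, likewise none did, and *Jak1*, a kinase of gp130 that was named after its values were seen, had ratios of 0.26 (1 W) and -0.12 (2 W) on the log2 scale. Of 14 SOCS and PIAS genes and phosphatases, which damp the signal, 2 were over 2.0-fold on each array, both dim (*Socs1* and *Socs2*). *Pias1*, an inhibitor of STAT factors, had 615 (day 0), 346 and 247 (1 W) and 132 (2 W) (log2 ratio -0.88 and -1.66, limma adjusted p = 0.216 and 0.0661).

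Targets of STAT3 had the highest median ratio at 1 W of these pathway lists. All 17 listed were measured and 15 were among the brighter genes. Over 2.0-fold on each array were 4 (*Junb*, *Bcl3*, *Cebpd* and *Tnfrsf12a*), against 4.28% of all genes. The median log2 ratio of the 17 was 1.32 and 0.90 on the replicates of 1 W and 0.37 on the 2 W array, and none was called by limma. Of the 17, 9 were above day 0 on each array and 3 below (*Bcl6*, *Hif1a* and *Vegfa*), against 26.5% and 33.4% of all genes. *Tnfrsf12a*, the receptor of the cytokine TWEAK, had 184 (day 0), 441 and 478 (1 W) and 524 (2 W) (log2 ratio 1.51 at 1 W, limma adjusted p = 0.101, and 2.08 at 2 W, adjusted p = 0.0553). *Cebpb*, a transcription factor of acute phase genes, had 39.0 (day 0), 168 and 141 (1 W) and 50.6 (2 W) (log2 ratio 2.17, adjusted p = 0.105, and 0.94, adjusted p = 0.124).

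Several of these targets shared the replicate pattern of *Socs3*. *Cebpd*, another C/EBP factor, had 229 on replicate 1 at 1 W and 50.2 on replicate 2, against 25.1 at day 0. *Junb*, an immediate early gene, had 323 and 117 at 1 W, against 50.8 at day 0. *Fos*, named after its values were seen, had 703 and 182 at 1 W, against 131 at day 0. The log2 difference of replicate 1 minus replicate 2 was 2.14 for *Cebpd*, 1.41 for *Junb*, 1.90 for *Fos* and 0.96 for *Bcl3*, and 0.20 for *Cebpb*.

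**Figure D3:**
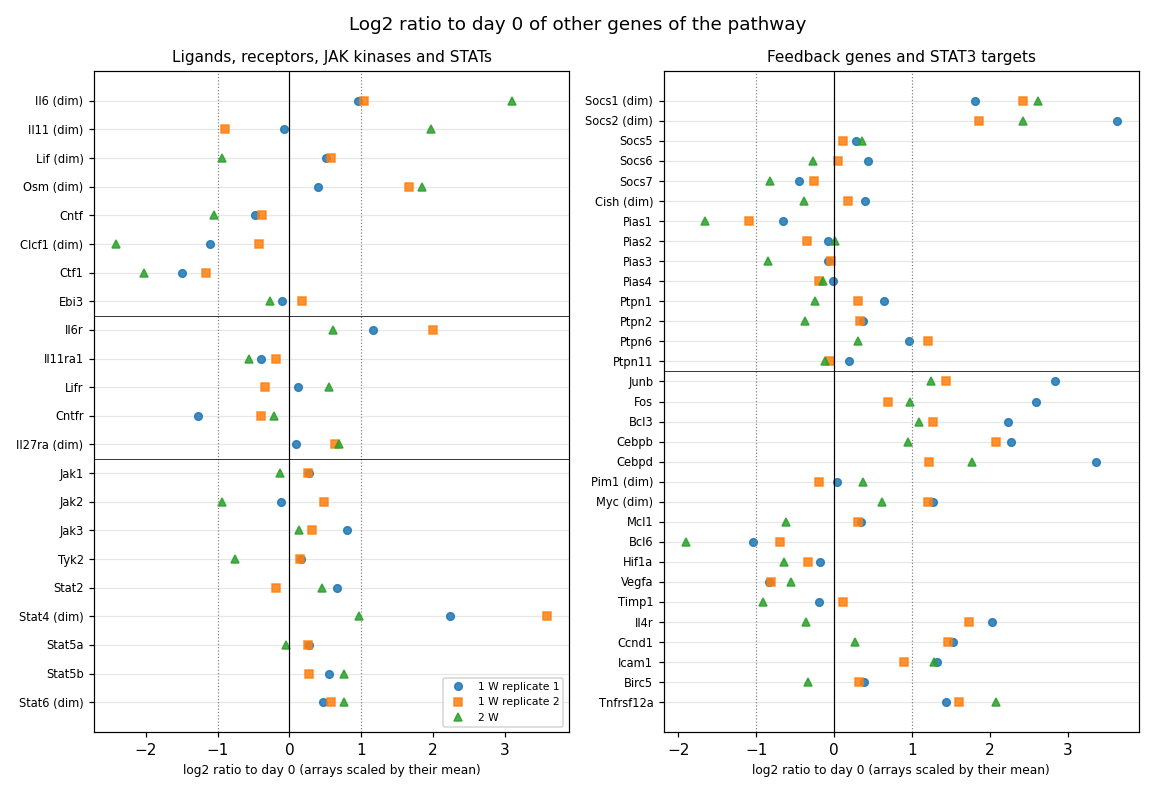
Log2 ratio to day 0 of other genes of the interleukin-6 pathway after division by the array mean, with ligands, receptors, JAK kinases and STATs on the left and feedback genes and STAT3 targets on the right. Symbols are the 2 arrays at 1 W and the array at 2 W, dotted lines stand at the 2.0-fold and 0.5-fold limits, and dim genes are below the filter. Among the ligands *Ctf1* lies left of the 0.5-fold line on each array, and among the targets *Cebpd*, *Junb* and *Fos* are farthest right on replicate 1.

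Other acute phase proteins were mostly dim in these capsules. Of 22 listed, 19 were measured, 6 were among the brighter genes and 3 (*C3*, *Cd14* and the dim *Reg3b*) were over 2.0-fold on each array. *C3*, the central complement protein, had 10.4 (day 0), 49.7 and 65.0 (1 W) and 27.9 (2 W) (log2 ratio 2.64 at 1 W, limma adjusted p = 0.142, and 1.99 at 2 W, adjusted p = 0.0973). *Cd14*, a receptor for bacterial lipopolysaccharide that also circulates, had 33.8 (day 0), 89.5 and 82.1 (1 W) and 55.8 (2 W) (log2 ratio 1.54 and 1.29, adjusted p = 0.145 and 0.0919). *Serpina1*, alpha-1-antitrypsin, had 19.8 (day 0), 29.5 and 42.4 (1 W) and 28.3 (2 W). The median log2 ratio of the 19 was 0.15, 0.41 and 0.08 on the 3 arrays. *Igf1*, an insulin-like growth factor whose liver output is known to drop in the acute phase, had 64.4 (day 0), 1194 and 322 (1 W) and 1133 (2 W), above day 0 on each array (limma adjusted p = 0.184 at 1 W and 0.0743 at 2 W). Of the 9 proteins measured that are known to drop in the acute phase, *Igf1* and the dim *Serpina6* exceeded 2.0-fold on each array, while the dim *Apoa4* was under 0.5-fold. Hepatocyte markers summed to 253 (day 0), 180 and 243 (1 W) and 194 (2 W), and 3 of 11 were among the brighter genes.

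Among serpins outside clade A, the family of *Serpina3n*, 15 were measured. *Serpine2*, a protease inhibitor of the extracellular matrix, had 45.7 (day 0), 244 and 126 (1 W) and 206 (2 W) (log2 ratio 2.14 at 1 W, limma adjusted p = 0.161, and 2.74 at 2 W, adjusted p = 0.0689). *Serpinb1a*, an inhibitor of neutrophil proteases, had 27.6 (day 0), 93.0 and 79.3 (1 W) and 52.2 (2 W) (log2 ratio 1.83 and 1.48, adjusted p = 0.138 and 0.0861). These were the 2 of 15 over 2.0-fold on each array, and the dim *Serpinb7* and *Serpinb10* were under 0.5-fold. Of the 15, 5 were above day 0 on each array and 4 below, against 26.5% and 33.4% of all genes. *Serpinb6a* was above, with 260 (day 0), 379 and 385 (1 W) and 487 (2 W). *Serpini1* was below, with 417 (day 0), 189 and 237 (1 W) and 81.2 (2 W). A list of 12 other clade A serpins, without *Serpina3n* and *Serpina3l*, had 10 measured genes, of which 1, the dim *Serpina6*, was over 2.0-fold on each array. Of 6 macroglobulin relatives and receptor genes measured besides *A2m*, *C3* was over 2.0-fold and the dim *C5* under 0.5-fold on each array. *Lrp1*, the receptor that clears alpha-2-macroglobulin bound to proteases, had ratios of -0.07 (1 W) and -0.63 (2 W) on the log2 scale (limma adjusted p = 0.866 and 0.174).

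Genes of iron and copper handling, the field of *Lcn2* and *Cp*, lay mostly below day 0. All 15 measured were among the brighter genes, 2 (*Tfrc* and *Cybrd1*) were under 0.5-fold on each array and none over 2.0-fold, and none was called. Of the 15, 11 were below day 0 on each array and 2 above, against 33.4% and 26.5% of all genes. *Heph*, hephaestin, a membrane relative of ceruloplasmin, had 1149 (day 0), 365 and 509 (1 W) and 209 (2 W) (log2 ratio -1.22 at 1 W, limma adjusted p = 0.175, and -1.89 at 2 W, adjusted p = 0.0647). *Tfrc*, the transferrin receptor, and *Slc22a17*, described as a lipocalin 2 receptor in the mouse, were named after their values were seen. *Tfrc* had 759 (day 0), 299 and 302 (1 W) and 219 (2 W) (log2 ratio -1.14 and -1.23, adjusted p = 0.116 and 0.0589). *Slc22a17* had 4945 (day 0), 1815 and 2179 (1 W) and 1758 (2 W) (log2 ratio -1.12 and -0.93, adjusted p = 0.138 and 0.0837). The 2 above were *Hmox1* and *Steap4*. *Hmox1*, which breaks down heme, had 46.8 (day 0), 114 and 63.7 (1 W) and 134 (2 W). *Steap4*, also in the list of reactive astrocyte genes below, had 39.1 (day 0), 185 and 49.8 (1 W) and 144 (2 W). Its log2 ratio was 2.40 and 0.57 on the replicates of 1 W and 2.44 at 2 W. The median log2 ratio of the 15 was -0.29, -0.32 and -0.56 on the 3 arrays, against -0.04, 0.01 and -0.16 over all genes.

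The genes whose ratios lay nearest to those of *Serpina3n*, by Euclidean distance over the 3 log2 ratios among the 10455 brighter genes, were *Tagln* (0.69), *Grem1* (0.92), *Tnfrsf11b* (1.26), *Col5a2* (1.56) and *Ifi27l2b* (2.03). *Tagln*, transgelin, a cytoskeletal protein of smooth muscle, had 25.1 (day 0), 1513 and 1195 (1 W) and 456 (2 W). *Grem1*, a secreted antagonist of bone morphogenetic proteins, had 3.47 (day 0), 197 and 104 (1 W) and 84.7 (2 W). *Tnfrsf11b*, osteoprotegerin, a secreted decoy receptor, had 3.13 (day 0), 139 and 88.2 (1 W) and 56.7 (2 W). *Col5a2*, a collagen chain, had 28.9 (day 0), 813 and 960 (1 W) and 476 (2 W). *Ifi27l2b* was the least steady of the 5, with log2 ratios of 6.95 and 4.23 (1 W) and 5.88 (2 W). Likeness here rests on 3 arrays that share a denominator. At day 0, *Grem1*, *Tnfrsf11b* and *Ifi27l2b* were even dimmer than *Serpina3n*, at the 10.1th, 9.4th and 8.0th percentile of that array. They passed the filter through the arrays after ECLE, and their ratios rest on these dim values. *Tagln* and *Col5a2* were at the 34.2th and 37.1th percentile.

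**Figure D4:**
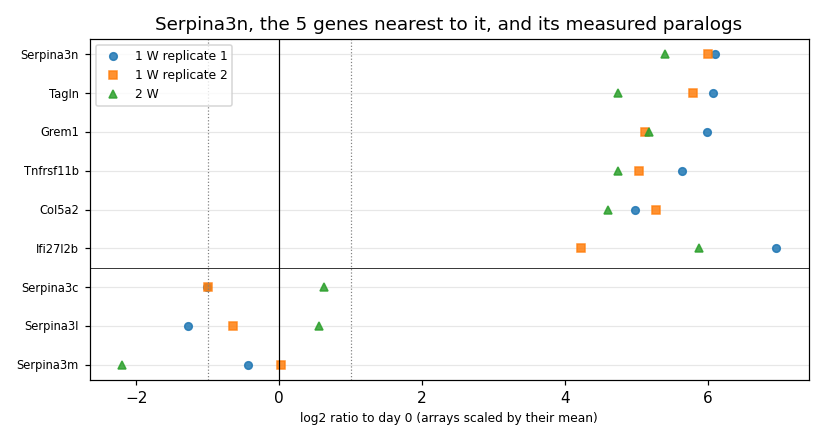
Log2 ratio to day 0 of *Serpina3n*, the 5 genes nearest to it and its 3 measured relatives, with a symbol for each of the 2 arrays at 1 W and the array at 2 W and dotted lines at the 2.0-fold and 0.5-fold limits. *Serpina3n* lies at 6.10, 6.01 and 5.40, *Tagln* is nearest to it, and *Serpina3c*, *Serpina3l* and *Serpina3m* lie around or below 0.

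Genes listed as markers of other cell types differed between the arrays as well. Of 12 macrophage markers, 10 were among the brighter genes and 8 were over 2.0-fold on each array, and their intensities summed to 612 (day 0), 3493 and 2590 (1 W) and 1442 (2 W). *Lyz2*, lysozyme of macrophages and neutrophils, had 235 (day 0), 2005 and 1472 (1 W) and 826 (2 W) (log2 ratio 3.06 and 2.38, limma adjusted p = 0.0828 and 0.0553). Markers of neutrophils, the cells in whose granules lipocalin 2 was described, were dim. None of the 7 measured was among the brighter genes, 3 (*S100a8*, *Mmp9* and *Cxcr2*) were over 2.0-fold on each array, and they summed to 41.4 (day 0), 59.8 and 60.7 (1 W) and 64.9 (2 W). Fibroblast markers summed to 5553 (day 0), 12201 and 6390 (1 W) and 8775 (2 W), and 9 of 10 were among the brighter genes. Of the 10, 5 (*Dcn*, *Lum*, *Col1a1*, *Col3a1* and *Postn*) were over 2.0-fold on each array and 1 (*Pdgfra*) was under 0.5-fold. The paper attributes the *Dcn* increase to LECs that remain after the surgery. Which cells carried the fibroblast markers here was not tested. *Col1a1*, a chain of type I collagen, was the 1 gene of these marker lists that limma called higher at both times (log2 ratio 4.34, adjusted p = 0.0300 at 1 W, and 5.23, adjusted p = 0.0405 at 2 W). Of 12 markers of Müller glia and astrocytes, none was over 2.0-fold on each array and *Car14* was under 0.5-fold. Of 6 blood and vessel markers, the dim *Pecam1* was over 2.0-fold on each array, and *Hbb*, a hemoglobin chain, under 0.5-fold. *Gfap*, the filament gene in the list of Müller glia and astrocytes, named after its values were seen, had 56.9 (day 0), 55.3 and 55.9 (1 W) and 29.3 (2 W). Of 9 genes of reactive astrocytes, *Hspb1* and *Cd44* were over 2.0-fold on each array and *S1pr3* was under 0.5-fold. The part of any of these cell types in the values of *Serpina3n*, *A2m* and *Lcn2* was not tested.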

How the data were processed

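RNA of lens capsules was measured on 4 Affymetrix rat arrays. The authors analysed the scans with Affymetrix Command Console and Expression Console, of which the submitters' processing notes list the second. Per the file, each deposited value is the intensity of a probe set on a linear scale. The methods describe a per chip normalization, dividing by control values or by the average of the array. Whether the deposited intensities carry it is not stated. Their array means still differed, between 165 and 244. The summary algorithm was not given in the sources used here.

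Control probe sets (57) were dropped, and the log2 of each intensity over its array mean was used. Tests were run in limma 3.58.1 (R 4.3.3) on 18625 probe sets, those not under the 40th percentile of mean level (lmFit, eBayes with an intensity trend, 3 groups, two-sided, Benjamini-Hochberg over all of them, threshold 0.05), with 1 residual and 3.12 prior degrees of freedom. On simulated arrays, 200 probe sets of known change served to test the fit. The p-values rest on the spread between the 2 arrays at 1 W, and the number of arrays limits precision. For each probe set that spread is moderated toward the trend over all tested probe sets, so standard errors and p-values are not those of its own 2 replicates alone. No detection calls were used, so the background of dim probe sets is unknown.

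Of 20826 probe sets with a single symbol, 20812 had it in RefSeq (GRCr8); those with several (436) or none (9780) were not named. A gene is represented by its brightest probe set. Named genes are all members, up to 4 per list with the largest mean ratio among brighter genes, called ones, and the 5 nearest to *Serpina3n*; list genes outside this rule, named for a small count or marked in the text, were chosen after their values were seen. The members and the 22 other gene lists were chosen with earlier results of these data known. Alternatives were other scalings, a floor, other filters, limma without a trend or robust, each 1 W replicate left out, other choices of probe set per gene and all arrays after ECLE as 1 group. Python 3.11.15 (pandas 2.3.3, numpy 2.4.6, matplotlib 3.10.9) made tables and plots.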

Additional observations from a re-analysis of the deposited data

Results flagged for a closer look

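In 3 member probe sets, both arrays at 1 W lay above day 0 and the array at 2 W lay below it. The log2 ratio at 2 W was -0.19 for *Cp* (1368418_a_at), against 0.26 and 0.23 on replicates 1 and 2 at 1 W. It was -0.16 for the brighter *Cp* probe set (1368419_at), against 0.02 and 0.10 at 1 W. It was -0.070 for *Stat3* (1370224_at), against 0.24 and 0.48 at 1 W. In limma, 2 W against 1 W gave adjusted p = 0.180, 0.353 and 0.267 in this order, so none of these differences passed the threshold. All 3 values at 2 W lie above the median of -0.26 of the brighter probe sets, and their direction depends on the scaling of the arrays.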

How the results depend on the processing

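The filters and the limma options do not enter a ratio, and the floor, at the 20th percentile, lay below every member value. These settings therefore could not move member ratios, and the dim day 0 value of *Serpina3n* was not tested by the floor. Of the 130 member values that moved, under 4 scalings or without a 1 W replicate, 118 kept their direction and 12 turned. *Serpina3n* stayed between 4.83 and 6.18 on the log2 scale. Limma calls depended strongly on scaling. Median scaling gave 260 higher and 146 lower at 1 W, 948 and 683 at 2 W, and 158 and 51 for 2 W against 1 W. The 75th percentile gave 276 higher and 123 lower at 2 W, and quantile normalization gave 0 higher at 2 W. Values as deposited gave 87 and 163 at 1 W, 344 and 7630 at 2 W, and 193 and 4228 for 2 W against 1 W, since the 2 W array is dimmer. Calls higher at 2 W were 4 with a floor and 5 with the 60th percentile filter, limma without a trend called 0 at either time, and all arrays after ECLE as 1 group gave 4. Probe sets over 2.0-fold on each array numbered 212 as deposited, 1342 without a filter, 190 with the 60th percentile filter, and 422 to 573 without a 1 W replicate, where limma has no residual degrees of freedom and gave no test. Member genes over 2.0-fold on each array were 3 throughout, except 2 with values as deposited, without *Lcn2*. The floor, the filters and the limma options could not change this count. Any or all probe sets of a gene also gave 3.

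The sign turned for the following. At 2 W, *Cp* 1368418_a_at was 0.088 with median and 0.13 with 75th percentile scaling, *Cp* 1368419_at 0.12 and 0.16, and *Stat3* 1370224_at 0.20 and 0.25, and 0.20 with quantile normalization. With values as deposited, *Cp* 1368419_at was -0.13 at 1 W, *Socs3* -0.046 at 2 W, *Stat3* 1371781_at -0.52 at 2 W and *Il6st* 1373140_at -0.14 at 1 W. *Il6st* 1373140_at at 1 W was -0.0024 without replicate 1 and 0.11 without replicate 2. Other calls were gained for *Cp* 1368420_at at 1 W with median scaling (1.17, limma adjusted p = 0.0381), *A2m* at 2 W with the 75th percentile (2.04, adjusted p = 0.0486) and, as deposited, *A2m* at both times, the 4 *Il6st* probe sets (-1.46 to -0.96) and the brighter *Cp* pair (-0.75 and -0.72) at 2 W. No paired analysis was possible because the labels number replicates at 1 W only.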

Other observations

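Inputs other than the interleukin-6 family were also measured. Of 16 genes of interleukin-1, TNF and NF-kB signaling, 10 were among the brighter genes and 1, *Il1r1*, the signaling receptor of interleukin-1, was over 2.0-fold on each array. It had 47.1 (day 0), 170 and 179 (1 W) and 80.8 (2 W) (log2 ratio 2.08, limma adjusted p = 0.101 at 1 W, and 1.34, adjusted p = 0.0715 at 2 W). *Il1b*, its ligand, had 24.7 (day 0), 25.6 and 27.9 (1 W) and 30.2 (2 W). *Relb*, an NF-kB subunit, had 24.6 (day 0), 38.9 and 74.1 (1 W) and 28.1 (2 W) (log2 ratio 1.32 and 0.76, limma adjusted p = 0.313 and 0.459).

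Of 12 serine proteases of leukocytes and related ones, 4 were among the brighter genes and 1 was over 2.0-fold on each array. This was *Plau*, the urokinase plasminogen activator, with 23.1 (day 0), 128 and 175 (1 W) and 37.4 (2 W) (log2 ratio 2.89, limma adjusted p = 0.105 at 1 W, and 1.26, adjusted p = 0.127 at 2 W). *Plat*, the tissue plasminogen activator, had 364 (day 0), 663 and 659 (1 W) and 304 (2 W) (log2 ratio 1.05 and 0.30, adjusted p = 0.119 and 0.279).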
